A study of Oryza sativa with 8 samples.

Results

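Transcripts of 6 rice genes for chlorophyll formation, light harvesting and carbon fixation were followed in dark-grown seedlings of the mhz7 mutant and of wild type (WT). The genes were PORA and PORB, which encode protochlorophyllide reductases, CAB2R, RCABP89 and RCABP69, which encode chlorophyll a/b-binding proteins, and RBCS, which encodes the small subunit of RuBisCO. Every probe set that the array's gene table gives to one of these genes alone, by symbol or synonym, was taken, whatever its signal. This gave 10 of 57258 probe sets and 6 of 17905 genes. RBCS had 4 probe sets, called RBCS 1 to RBCS 4 here in order of signal, which is a naming and no ranking of transcript levels. CAB2R had 2, called CAB2R 1 and CAB2R 2 in the same way, and the other genes had 1 each. Probe sets of one gene share their target and are not repeats of a condition.

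In flowering plants the light-dependent step of chlorophyll synthesis is the reduction of protochlorophyllide by PORA and PORB, so seedlings in the dark do not green and their plastids become etioplasts. PORA is known for its abundance in etiolated seedlings, and PORB for its presence in darkness and in light. Chlorophyll a/b-binding proteins form the antenna that passes absorbed light to the photosystems, RuBisCO fixes carbon dioxide, and transcripts of both kinds are known to increase when a seedling reaches the light.

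The samples were shoots and roots of mhz7 seedlings in ethylene, mhz7 seedlings in air, WT seedlings in ethylene and WT seedlings in air, with 1 array for each of these conditions and 8 arrays in all. Seeds of both genotypes germinated for 2 days at 37 °C in the dark, and seedlings aged 3 days then received 10 ppm ethylene, a gaseous plant hormone, for 8 h at 28 °C, also in the dark, or stayed in air as controls. The arrays titled MHZ7 are read as those of the mutant, since the protocols name a wild type and a mutant. MHZ7 is another name of EIN2, a membrane protein that relays the ethylene signal. The sources used here do not give the lesion, the cultivar or the number of seedlings behind each RNA sample. No condition was repeated, so a difference between 2 arrays stands without replicates, and precision is limited by how few arrays there are. In such bulk RNA, fewer cells of a type and less RNA per cell cannot be told apart.

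Signals are MAS5 intensities brought to a common scale, in arbitrary units, and a signal under a floor of 100 was treated as 100 before log2 was taken. A probe set is said to have risen or fallen between 2 arrays where the difference reached 2-fold and the higher signal reached 200. Ethylene, genotype and tissue were also tested with limma over the 4 pairs of arrays that differ in that factor alone, and within shoots and within roots. Those fits covered 21444 probe sets with a mean signal of at least 200, among them 9 of the 10 member probe sets. The exception was RBCS 4, which read 15.5 to 24.7 on the 8 arrays and is not described further. Levels of different probe sets cannot be set against each other on an array.

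Arrays were alike in scale, with 51.5 to 53.1% of probe sets under the floor and 20237 to 20547 at 200 or more. EIN2 itself read higher in mhz7, by 0.97 on the log2 scale over the 4 pairs (SE 0.0967, limma adjusted p = 0.0348), which does not test the genotype label while the lesion is unknown. Actin is read by control probe sets at its 3′ and its 5′ end, and their ratio goes up with RNA degradation. It was 13.5 in mhz7 shoots in ethylene, 9.55 in mhz7 shoots in air, 8.26 in WT shoots in ethylene and 6.34 in WT shoots in air. On the root arrays it was 9.32 with ethylene and 6.81 with air in mhz7, and 6.80 with ethylene and 6.62 with air in WT. Root markers such as the silicon transporter genes LSI1 and LSI2 and the aquaporin gene TIP2-1 (10 of 11 on the array) summed to 2261 to 7992 in shoots, against 107159 to 171351 in roots. Shoot markers such as the YABBY genes YAB1, YAB2 and YAB5 and the lipid transfer protein gene LTP2-B (8 of 10 on the array) summed to 43467 to 46567 in shoots and to 365 to 1907 in roots. LTP2-B alone made 27318 to 31398 of the shoot sums. YAB3 read 434 and 455 in mhz7 shoots, in ethylene and air, and 506 and 816 in WT shoots, while YAB1, YAB2 and YAB5 read higher in mhz7 shoots in both gases. The shoot meristem gene OSH1 and the leaf gene DL read under 200 everywhere. The 7 seed markers summed to 4206 to 4774 in shoots and to 4868 to 5794 in roots. Among them AMY1.1 read 621 in WT shoots in air and 9.86 to 45.8 on the other arrays. The part of seed tissue in the differences between arrays was not tested.

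Shoots carried these transcripts in all 4 combinations of genotype and gas, and roots had little signal. RBCS 1 read 38825 in mhz7 shoots in ethylene, 43152 in mhz7 shoots in air, 29474 in WT shoots in ethylene and 42538 in WT shoots in air, which is 62.1 to 90.1% of the highest signal on those arrays. In roots RBCS 1 read 225 and 281 in mhz7, in ethylene and air, and 279 and 1042 in WT. The shoot signal was 172-fold and 153-fold the root signal in mhz7, in ethylene and air, and 106-fold and 40.8-fold in WT.

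**Figure D1:**
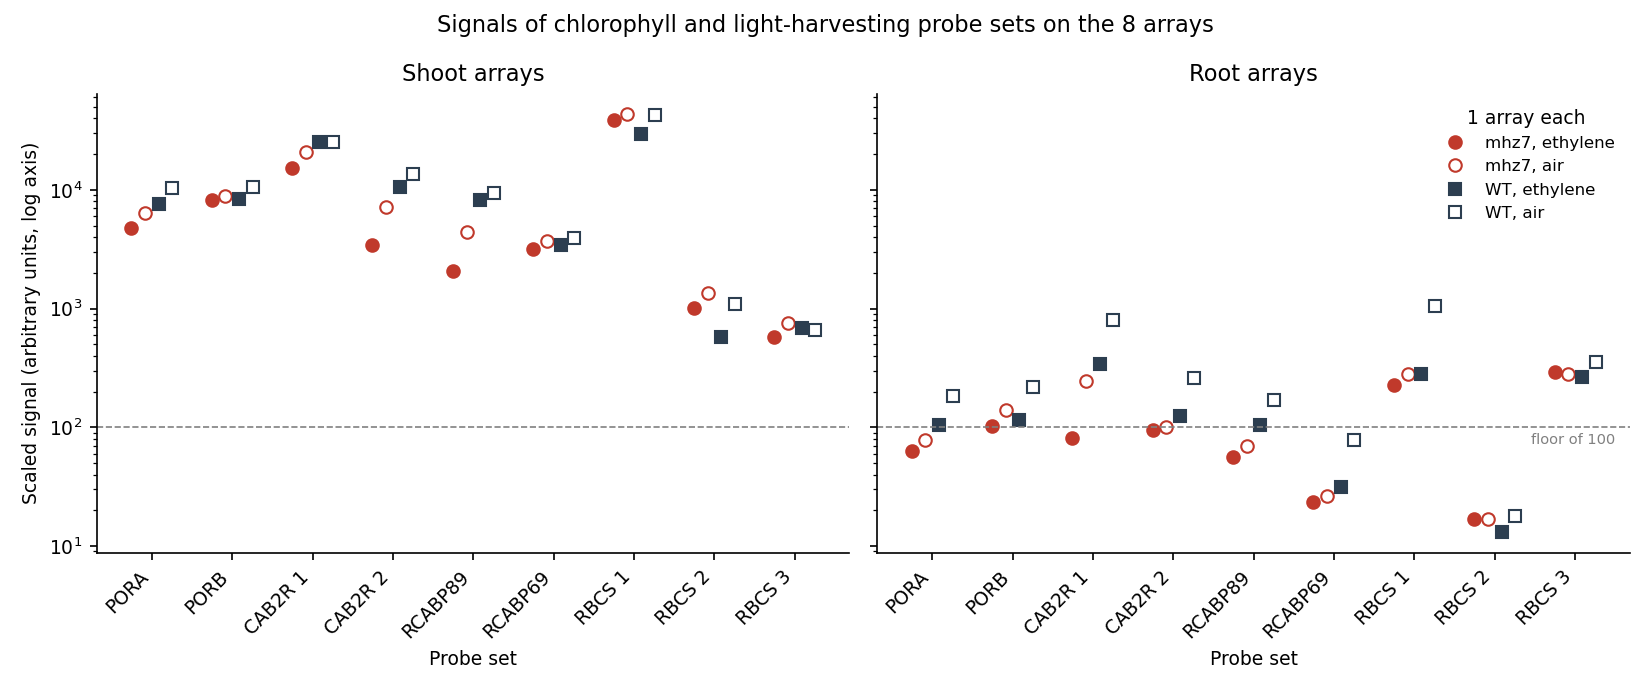
Scaled signal (arbitrary units, log axis) of the 9 probe sets that passed the filter, on the 4 shoot arrays (left) and the 4 root arrays (right). Each point is 1 array, circles are mhz7 and squares WT, filled points ethylene and open points air, and the dashed line is the floor of 100. Shoot points of PORA, CAB2R 2 and RCABP89 climb in the order mhz7 ethylene, mhz7 air, WT ethylene, WT air, and most root points lie near or under the floor, with WT in air the highest of the 4 for each probe set.

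Both reductase genes were read strongly in the dark-grown shoots. PORA read 4724 in mhz7 shoots in ethylene, 6319.8 in mhz7 shoots in air, 7630.3 in WT shoots in ethylene and 10310.1 in WT shoots in air. Its root signals were 63.7 and 78.5 in mhz7, in ethylene and air, and 105 and 182 in WT. Both mhz7 roots lay under the floor, and the shoot signal was at least 47.2-fold the root signal in ethylene in that genotype. PORB read 8228 and 8841 in mhz7 shoots, in ethylene and air, and 8359 and 10513 in WT shoots, while mhz7 roots gave 102 and 140 and WT roots 115 and 217. The 4 shoot signals of PORB lie closer together than those of PORA, whose highest was in WT air and whose lowest was in mhz7 ethylene.

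Among the antenna genes, CAB2R 1 read 15110 in mhz7 shoots in ethylene, 20907 in mhz7 shoots in air, 25018 in WT shoots in ethylene and 25244 in WT shoots in air. CAB2R 2, the other probe set of the same gene, read 3419 and 7157 in mhz7 shoots, in ethylene and air, and 10632 and 13518 in WT shoots. RCABP89 read 2075 and 4416 in mhz7 shoots, in ethylene and air, and 8147 and 9362 in WT shoots. In all 3 probe sets both mhz7 shoot arrays lay below both WT shoot arrays. RCABP69 was different in this respect, with 3168 and 3710 in mhz7 shoots and 3436 and 3910 in WT shoots, where the genotypes overlapped and ethylene was the lower gas in each. In roots RCABP69 stayed under the floor on all 4 arrays, at 23.3 and 26.5 in mhz7 and 31.4 and 78.3 in WT, in ethylene and air.

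Of the other RBCS probe sets, RBCS 2 read 1011 and 1341 in mhz7 shoots, in ethylene and air, and 571 and 1085 in WT shoots, with 13.2 to 18.0 in roots. RBCS 3 read 570.4 and 750.2 in mhz7 shoots, in ethylene and air, and 690.01 and 653 in WT shoots. Its root signals were 293 and 283 in mhz7 and 263 and 354 in WT. Of the 9 that passed the filter, RBCS 3 was the probe set with the smallest contrast of the organs, 1.95-fold and 2.65-fold in mhz7, in ethylene and air, and 2.62-fold and 1.84-fold in WT. The names of RBCS 1, RBCS 2 and PORB end in a suffix that the array's maker gives to probe sets able to bind other sequences, and those of CAB2R 2 and RCABP69 in one for probe sets shared by several transcripts, so these signals may include related genes.

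Between organs, 8 of 10 member probe sets were at least 2-fold higher in shoots in mhz7 in ethylene, 9 in mhz7 in air, 9 in WT in ethylene and 8 in WT in air, where 6.07%, 6.07%, 5.7% and 6.17% of all probe sets were higher in shoots. RBCS 3 accounts for the difference between 8 and 9, and RBCS 4 was under the floor on all arrays. The limma fit over 4 pairs put the shoot minus root difference at 6.69 for RBCS 1 (SE 0.362), 6.02 for PORB (SE 0.133), 5.89 for PORA (SE 0.113), 6.21 for CAB2R 1 (SE 0.359), 5.47 for RCABP89 (SE 0.311) and 5.15 for RCABP69 (SE 0.0751). Root signals lay under the floor for RCABP69 on all 4 root arrays, for PORA and RCABP89 in mhz7, and for CAB2R 1 in mhz7 in ethylene. The differences of these probe sets are therefore lower bounds. The small SE of RCABP69 reflects root signals that the floor made equal, not a precise measurement. All 9 tested members were called, with adjusted p from 4.44e-06 to 0.000644, as were 67.4% of the 21444 probe sets and 25.9% in the same direction. Most members passed the filter through their shoot signals alone, so this count supports nothing further.

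Comparing mhz7 with WT asks how the transcripts stand in a mutant named after EIN2, whose ethylene signalling was not tested here. In shoots, RCABP89 was the member that differed most: it fell 3.93-fold in mhz7 in ethylene and 2.12-fold in mhz7 in air (log2 differences of -1.97 and -1.08). CAB2R 2 fell 3.11-fold in ethylene (-1.64) and stood at -0.92 in air, short of 2-fold. PORA differed by a like amount in both gases, -0.69 in ethylene and -0.71 in air, and CAB2R 1 by -0.73 and -0.27. By contrast RCABP69 (-0.12 and -0.08) and PORB (-0.02 and -0.25) stood near 0, and RBCS 1 (0.40 and 0.02) and RBCS 2 (0.82 and 0.31) lay above 0 in both gases. RBCS 3 had -0.27 in ethylene and 0.20 in air.

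Thus 2 of 10 member probe sets fell and none rose in mhz7 shoots in ethylene, where 0.854% of all probe sets were lower and 1.95% changed in either direction, and 1 of 10 fell in air, where 0.451% were lower and 1.16% changed. The median over the 9 members that passed the filter was -0.27 in ethylene and -0.25 in air, against 0 and -0.02 over all probe sets tested. The 2 probe sets of CAB2R did not give the same size: CAB2R 1, at 31.0 to 53.5% of the highest signal on its shoot arrays, showed less of a difference than CAB2R 2, at 7.01 to 28.6%.

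**Figure D2:**
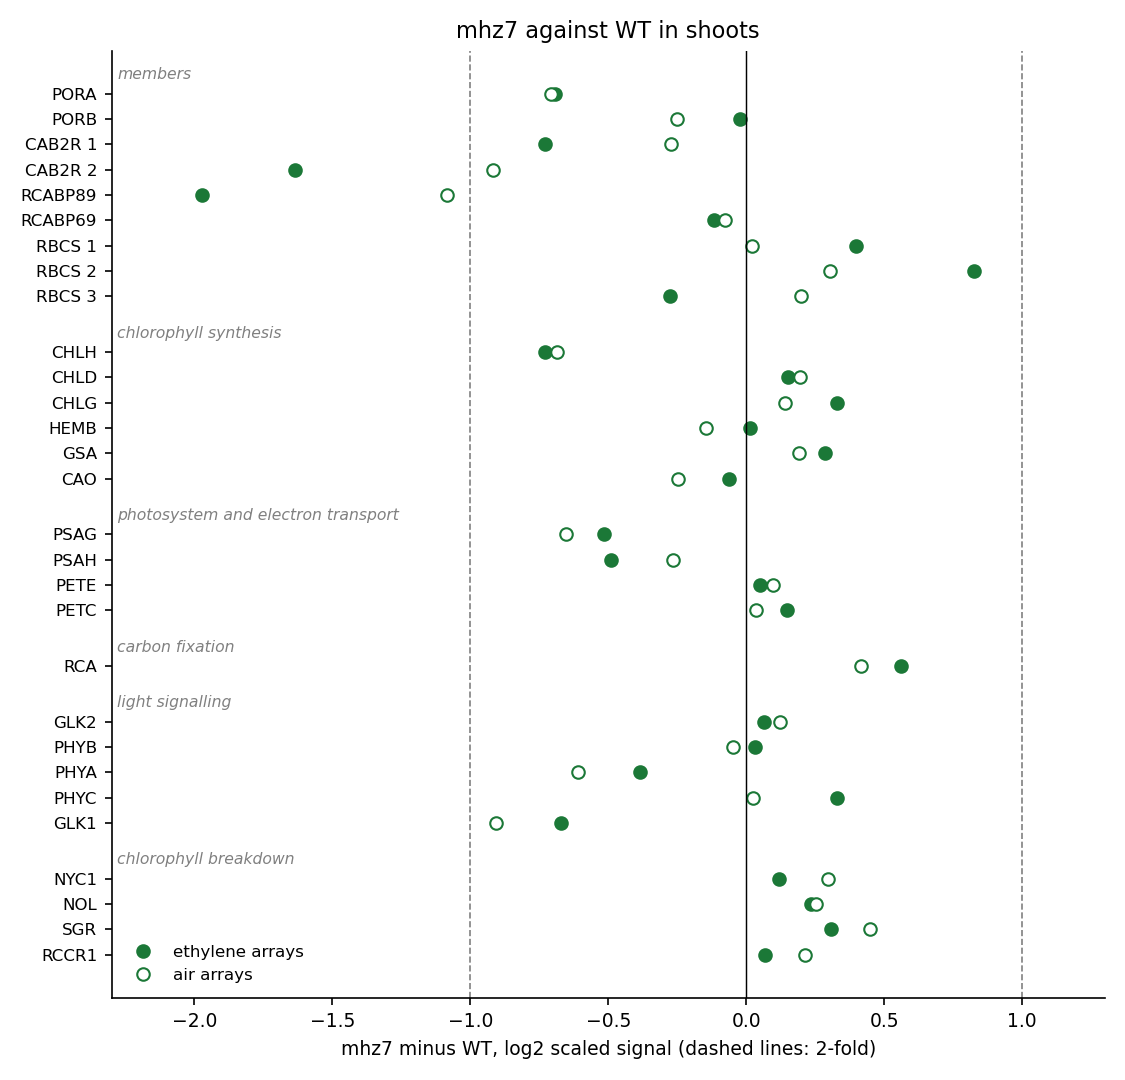
Difference of mhz7 minus WT in shoots (log2 scaled signal) for the members and for the other measured genes of 5 lists, on the ethylene arrays (filled) and on the air arrays (open), 1 pair of arrays each. Dashed lines mark 2-fold. RCABP89 lies past the left line in both gases and CAB2R 2 in ethylene, PORA lies near -0.7 in both, and RBCS 1, RBCS 2 and RCA lie right of 0.

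Within shoots, the limma fit with gas as a term has 1 residual degree of freedom and called none of the 21444 probe sets, although 5551 had an unadjusted p under 0.05. PORA differed by -0.70 (SE 0.0576, 95% interval -0.89 to -0.51, adjusted p = 0.110), CAB2R 2 by -1.28 (SE 0.224, interval -2.03 to -0.52, adjusted p = 0.137) and RCABP89 by -1.53 (SE 0.274, interval -2.45 to -0.61, adjusted p = 0.138). For RCABP69 the interval was -0.29 to 0.10 and for PORB -0.44 to 0.16. For RBCS 1 it was -0.22 to 0.64, at signals close to the highest on these arrays, where compression was not tested, so no limit on its change is drawn from it. These calls depend on the floor: with no floor, PORA, CAB2R 2 and RCABP89 passed with the same differences (adjusted p = 0.0306, 0.0481 and 0.0485), as did 1272 probe sets in all. With trended and robust variances PORA passed as well (adjusted p = 0.0472).

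Across all 4 tissue and gas pairs the limma fit for genotype called 310 probe sets (1.45%, with 0.56% lower in mhz7) and none of the 9 members. CAB2R 2 was nearest, at -1.06 (SE 0.224, adjusted p = 0.0855), followed by PORA at -0.59 (SE 0.143, adjusted p = 0.107), CAB2R 1 at -1.12 (SE 0.288, adjusted p = 0.114) and RCABP89 at -0.97 (SE 0.304, adjusted p = 0.156; -0.64 without the ethylene shoot pair). Each of these was lower in mhz7 in 4 of 4 pairs, and so was PORB (-0.27, limma adjusted p = 0.253). In roots, however, both mhz7 signals of PORA, RCABP89 and CAB2R 2 lay under the floor, as did that of CAB2R 1 in ethylene. Their root differences in those pairs are bounds. In ethylene-treated roots PORA (-0.08) and RCABP89 (-0.07) set WT signals of 105 against the floor, so these directions carry little weight. RCABP69 (-0.05, interval -0.20 to 0.10), RBCS 1, RBCS 2 and RBCS 3 were lower in 2 of 4 pairs or fewer. For RCABP69 and RBCS 2 both root pairs lay under the floor and could show no difference, which also narrows the RCABP69 interval. Without the floor RCABP69 stood at -0.12 and -0.08 in shoots and -0.43 and -1.56 in roots, in ethylene and air. RBCS 2 stood at 0.36 and -0.08 in roots. Without the floor PORA passed (-0.84, adjusted p = 0.0479).

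The order of the 4 shoot arrays in PORA, CAB2R 1, CAB2R 2 and RCABP89 is the reverse of their order in the 3′ to 5′ actin ratio. For mhz7 minus WT that ratio differed by 0.71 in ethylene and 0.59 in air on the log2 scale, and the ratio of the GAPDH control by 0.62 and 0.33. The summed root markers in shoots stood in the same order as the 4 probe sets, at 2261 and 5020 in mhz7, in ethylene and air, and 5369 and 7992 in WT. Single root markers did not all share that order: LSI1 read 886 and 1224 in mhz7 shoots, in ethylene and air, and 906 and 1171 in WT shoots. TIP2-1 read 90.9 and 1347 in mhz7 shoots and 612 and 1717 in WT shoots, and the phosphate transporter gene PHT1-2 read higher in mhz7 in both gases (0.31 and 0.36). The part of RNA quality and of root tissue in these differences was not tested. For comparison, 539 other shoot-abundant probe sets, at least 10-fold brighter in shoots in all 4 pairs with a mean shoot signal of at least 1000, had a median mhz7 minus WT difference of 0.09 in ethylene and 0.07 in air on the same shoot arrays.

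Ethylene against air asks whether the transcripts respond to the hormone in each genotype. In mhz7 shoots, RCABP89 fell 2.13-fold (-1.09) and CAB2R 2 fell 2.09-fold (-1.07) with ethylene. The other members lay between -0.47 for CAB2R 1 and -0.10 for PORB, with PORA at -0.42, so all 9 that passed the filter were below 0, as were 44.2% of all probe sets tested. In WT shoots none of the 10 reached 2-fold: RBCS 2 stood at -0.93, RBCS 1 at -0.53, PORA at -0.43, CAB2R 2 at -0.35, PORB at -0.33, RCABP89 at -0.20, RCABP69 at -0.19, CAB2R 1 at -0.01 and RBCS 3 at 0.08.

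The counts were 2 of 10 lower in mhz7 shoots, where 0.199% of all probe sets were lower and 0.227% changed in either direction, and 0 of 10 in WT shoots, where 0.526% were lower and 0.73% changed. None was higher in either genotype. Medians were -0.41 in mhz7 and -0.33 in WT, against 0.02 and 0 over all probe sets tested. PORA had almost the same ethylene difference in both genotypes. RBCS 1, RBCS 2 and PORB lay further below 0 in WT, and RCABP89, CAB2R 2 and CAB2R 1 further below 0 in mhz7.

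**Figure D3:**
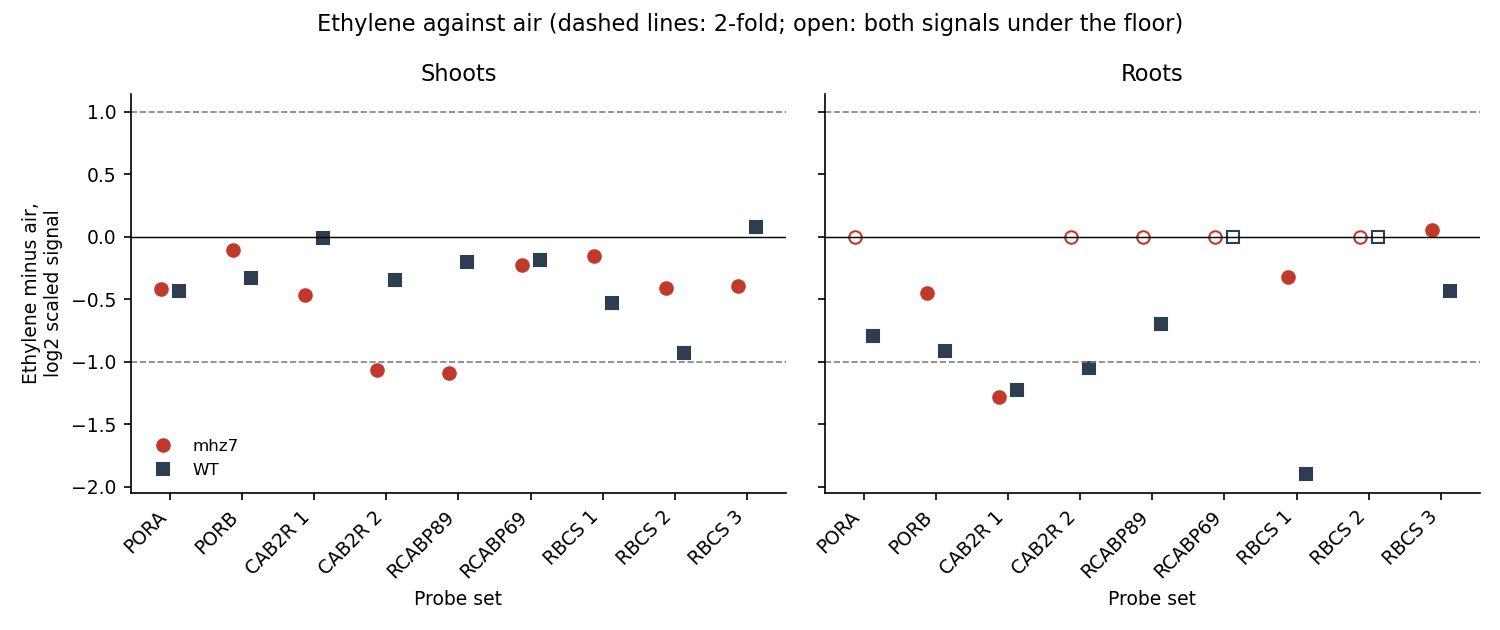
Ethylene minus air (log2 scaled signal) for the 9 members that passed the filter, in shoots (left) and roots (right), with circles for mhz7 and squares for WT. Dashed lines mark 2-fold, each point is 1 pair of arrays, and open points at 0 had both signals under the floor. In shoots only CAB2R 2 and RCABP89 in mhz7 pass the lower line, and in roots CAB2R 1 does in both genotypes and RBCS 1 and CAB2R 2 do in WT.

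Over the 4 pairs, limma called no probe set for ethylene (1704 of 21444, or 7.95%, had an unadjusted p under 0.05), and the members' adjusted p ran from 0.581 to 0.707. Of the members 5 had an unadjusted p under 0.05, among them PORB (-0.45, SE 0.134, lower in 4 of 4 pairs), CAB2R 1 (-0.75, SE 0.231, lower in 4 of 4) and PORA (-0.41, SE 0.128, lower in 3 of 4, with both mhz7 root signals under the floor). Within shoots limma again called none (1767 with p under 0.05), with PORA at -0.43 (SE 0.0576, interval -0.62 to -0.23, adjusted p = 0.590) and RCABP69 at -0.21 (SE 0.0588, interval -0.40 to -0.01, adjusted p = 0.590). The gas by genotype interaction called none either (1304 with p under 0.05), so the difference between the genotypes in their ethylene response did not pass the test for any member. Its largest value was that of RBCS 1, 0.98 (SE 0.322, adjusted p = 0.778), which passed with median scaling (adjusted p = 0.00691). The actin ratio was higher in ethylene by 0.50 in mhz7 shoots and 0.38 in WT shoots on the log2 scale, and its part was not tested.

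In roots the signals were low, and for 6 of 10 probe sets in mhz7 both lay under the floor. CAB2R 1 read 81.1 in ethylene and 243 in air in mhz7 roots, and 343 in ethylene and 801 in air in WT roots. It fell with ethylene by at least 2.43-fold in mhz7 and by 2.33-fold in WT, and it fell in mhz7 relative to WT by at least 3.43-fold in ethylene and by 3.29-fold in air. RBCS 1 fell 3.74-fold with ethylene in WT roots (-1.90) and stood at -0.32 in mhz7 roots. In mhz7 roots RBCS 1 fell 3.70-fold relative to WT in air (-1.89) and stood at -0.31 in ethylene.

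CAB2R 2 read 94.9 and 99.96 in mhz7 roots, in ethylene and air, and 126 and 259.7 in WT roots. It fell 2.07-fold with ethylene in WT roots, and in air it fell by at least 2.60-fold in mhz7 relative to WT. The fall with ethylene missed 2-fold with median scaling (-0.94) and on the values as deposited (-0.996). With a floor of 200 neither fall of CAB2R 2 was left (-0.38 each), and CAB2R 1 in mhz7 roots stood at -0.28 for ethylene and -0.78 against WT in ethylene. RBCS 3 stood at -0.43 and -0.32 where RBCS 1 fell. RCABP89, which differed most in shoots, read 56.1 and 69.5 in mhz7 roots and 105 and 170.5 in WT roots, and did not reach the signal of 200 that the rule needs. For CAB2R 1, CAB2R 2, RBCS 1 and RCABP89, WT in air was the highest of the 4 root arrays.

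With ethylene, 1 of 10 member probe sets fell in mhz7 roots and 3 of 10 in WT roots, where 0.339% and 0.393% of all probe sets fell and 0.463% and 0.802% changed in either direction. In mhz7 relative to WT, 1 of 10 fell in ethylene and 3 of 10 in air, where 1.79% and 0.643% fell and 3.1% and 1.37% changed. No member rose in any of these 4 comparisons. Within roots, limma put CAB2R 1 at -1.25 for ethylene (SE 0.0522, adjusted p = 0.828) and at -1.75 for genotype (SE 0.0522, adjusted p = 0.199). No probe set was called for either (1171 and 5053 with p under 0.05). For CAB2R 1 the mhz7 root signal in ethylene lay under the floor, which brought the pairs behind each value closer together. With the floor the ethylene differences were -1.28 in mhz7 and -1.22 in WT, and without it -1.58 and -1.22. The genotype differences were -1.78 in ethylene and -1.72 in air with the floor, and -2.08 and -1.72 without it. Both limma values are therefore lower bounds in size, and their small SE is not a precise measurement. These 4 comparisons share arrays, the WT roots in air standing in both the gas and the genotype comparison, so the falls of RBCS 1 and CAB2R 2 in roots rest on 1 high array each time.

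Whether genotype differences depended on the organ did not pass the test for any member. RBCS 1 was higher in mhz7 in both shoot pairs (0.40 and 0.02) and lower in both root pairs (-0.31 and -1.89), in ethylene and air. The genotype by tissue interaction, shoot minus root, was 1.31 for RBCS 1 (SE 0.322, adjusted p = 0.119), 1.25 for CAB2R 1 (SE 0.152, adjusted p = 0.0553) and -1.11 for RCABP89 (SE 0.413, adjusted p = 0.213). CAB2R 2, from the same gene as CAB2R 1, had the opposite sign, at -0.42 (SE 0.456, adjusted p = 0.614). Limma called no probe set in that fit (5260 with p under 0.05). With median scaling RBCS 1, CAB2R 1 and RCABP89 passed (adjusted p = 5.78e-06, 1.84e-05 and 1.34e-05), as they did on the values as deposited (0.00612, 0.00151 and 0.0224), and RCABP89 passed with a floor of 200 (0.0481). The RCABP89 value moved to -0.43 without the floor, since both mhz7 root signals lay under it.

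Other shoot-abundant transcripts also moved on the root arrays. As a share of their shoot signal, computed without the floor, the 539 probe sets had a median of 2.79% in ethylene-treated mhz7 roots, 2.998% in mhz7 roots in air, 3.43% in ethylene-treated WT roots and 4.50% in WT roots in air. Their median root signals were 79.0 and 99.7 in mhz7, in ethylene and air, and 109 and 153 in WT, so in mhz7 the median lay under the floor. RBCS 1, whose root signals all passed the floor, stood at 0.580%, 0.652%, 0.946% and 2.45% on the same arrays. CAB2R 1 stood at 0.537%, 1.16%, 1.37% and 3.17%, of which the first rests on a signal under the floor. The mhz7 minus WT median of the 539 was -0.29 in ethylene and -0.52 in air in roots, and their ethylene minus air median was -0.21 in mhz7 roots and -0.43 in WT roots. Summed shoot markers in roots stood at 365 and 625 in mhz7, in ethylene and air, and 778 and 1907 in WT, or 0.828%, 1.44%, 1.72% and 4.10% of the matching shoot array. The part of shoot tissue on the root arrays in the falls of CAB2R 1, CAB2R 2 and RBCS 1 was not tested.

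**Figure D4:**
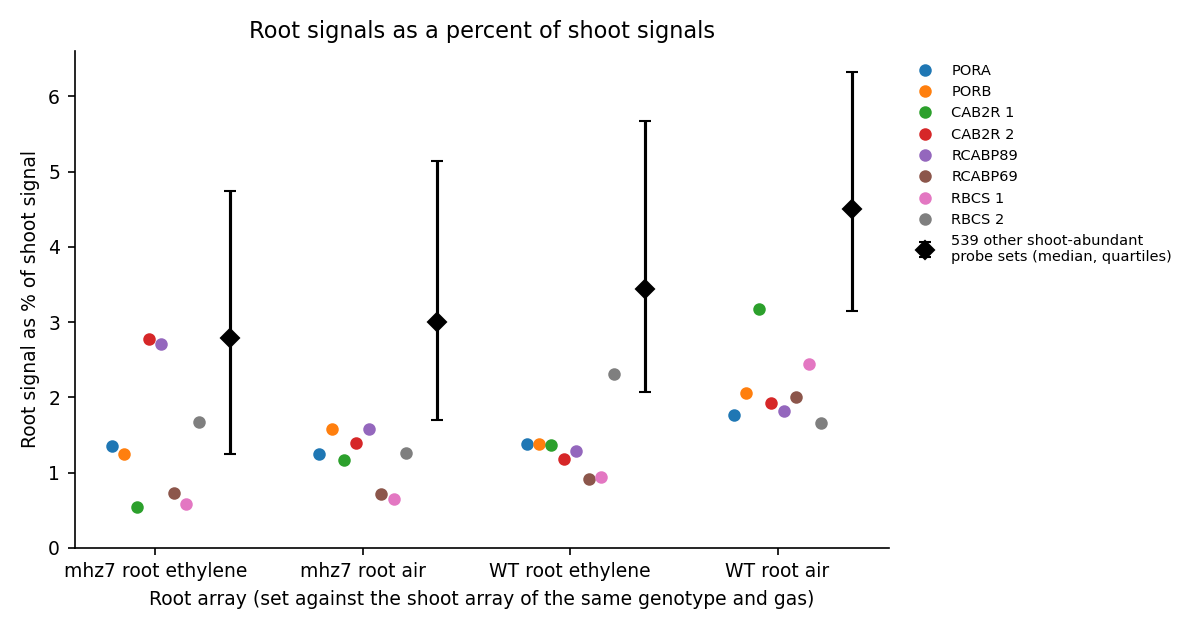
Root signal as a percent of the shoot signal of the same genotype and gas, without the floor, for the 8 members at least 10-fold brighter in shoots and for 539 other probe sets that meet the same rule. Coloured points are members, and the diamond and bar are the median and quartiles of the other probe sets. The median is highest in WT roots in air at 4.50%, and many of the root signals behind these percents lie under the floor of 100, so the order of the points within an array is not read.

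Further genes of the same processes were looked at by symbol. The gene table names 9 other chlorophyll synthesis genes, of which 6 passed the filter, and none changed 2-fold with gas or genotype in either organ. CHLH, a subunit of the magnesium chelatase that commits porphyrin to chlorophyll, read 487 and 613 in mhz7 shoots, in ethylene and air, and 807 and 987 in WT shoots. Its mhz7 minus WT differences of -0.73 and -0.69 lie close to those of PORA, and in roots it was under the floor on all 4 arrays. The chelatase subunit gene CHLD (0.15 and 0.19), the chlorophyll synthase gene CHLG (0.33 and 0.14), and HEMB (0.01 and -0.15), GSA (0.29 and 0.19) and CAO (-0.06 and -0.25), for earlier and later steps of the pathway, lay nearer 0 in shoots. All 6 rose in shoots relative to roots in each of the 4 pairs.

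Of 24 photosystem and electron transport genes, many of them plastid-encoded and without a probe set here, 4 passed the filter. PSAG, a photosystem I subunit gene, read 755 and 1002 in mhz7 shoots, in ethylene and air, and 1079 and 1574 in WT shoots (-0.52 and -0.65). PSAH, another photosystem I subunit gene, read 6204 and 7467 in mhz7 shoots and 8714 and 8966 in WT shoots (-0.49 and -0.26). Both mhz7 shoots were below both WT shoots for each. The plastocyanin gene PETE (0.05 and 0.10) and the Rieske protein gene PETC (0.15 and 0.04) stood near 0 in shoots. In roots PETE fell in mhz7 relative to WT in both gases and with ethylene in both genotypes, and PETC fell in mhz7 relative to WT in both gases.

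Carbon fixation had 1 other gene that passed, RCA, which encodes RuBisCO activase. RCA read 6174 and 6352 in mhz7 shoots, in ethylene and air, against 4188 and 4758 in WT shoots, so mhz7 was the higher in both gases (0.56 and 0.42) without reaching 2-fold, on the same side of 0 as RBCS 1 and RBCS 2. Among 5 light signalling genes, the chloroplast development factor gene GLK1 read 574 and 505 in mhz7 shoots, in ethylene and air, and 914 and 946 in WT shoots (-0.67 and -0.91). Its relative GLK2 stood at 0.07 and 0.12, and the phytochrome genes at -0.38 and -0.61 for PHYA, 0.03 and -0.05 for PHYB and 0.33 and 0.02 for PHYC. No gene of these 4 lists was called by limma for gas, for genotype or for an interaction.

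For each gene, the 3 named genes with the profile most similar to that of its brightest probe set were found among 1886. The measure was the root mean square difference in log2 signal over the 8 arrays after each tissue's mean was removed, which is a description only. CAB2R and RBCS therefore stand here for CAB2R 1 and RBCS 1, and the other probe sets of these genes were not compared. Nearest to PORA were PSAG (0.0853), the aquaporin gene RWC-3 (0.137) and PSAH (0.158), where the PORA profile itself has a root mean square of 0.388. RCABP89 (0.649) was nearest to the nicotianamine synthase genes NAS1 (0.251) and NAS2 (0.268), and then to the protein kinase gene CIPK16 (0.309). NAS1 and NAS2 are 2 of the root markers, and NAS1 read 242 and 500 in mhz7 shoots, in ethylene and air, 1020 and 1397 in WT shoots, and 17176 to 35679 in roots. CAB2R (0.790) was nearest to the lipid transfer protein gene LTP (0.201), OsCASPL2A1 (0.202) and PETE (0.226). RBCS (0.638) was nearest to the protein phosphatase gene BIPP2C1 (0.242), OsCASPL2A1 (0.314) and BURP3 (0.349). PORB (0.308) was nearest to LP02, listed also as OEE3 (0.108), BURP3 (0.132) and the homeobox gene HOX7 (0.134). RCABP69 (0.0811), whose profile was the flattest, was nearest to ETFA (0.0294), the phytoene synthase gene OsPSY1 (0.0379) and the thioredoxin gene OsTrx18 (0.0395). These profiles were taken after the floor. All root signals of RCABP69 lay under it, at 23.3 to 78.3, so the root part of its profile is flat because of the floor. Its flatness in roots is therefore not measured. The floored root values still count in the distance, so its nearest genes are also genes that read flat in roots.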

How the data were processed

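Total RNA of 8 samples, 5 µg each, was hybridised to Affymetrix rice arrays as biotin-labelled cRNA, per the labels' protocols. The deposited values are intensity values on a linear scale, 1 per probe set and array, made by the authors with MAS5, per the submitters' processing notes. Its version and scaling target, and detection calls, are given in none of the sources used here. Of 57381 probe sets, 123 controls were set aside. Each array was scaled to a trimmed mean of 500, with 2% trimmed at each end (factors of 2.00 to 2.10), floored at 100 and put on the log2 scale.

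The gene table lists 1 gene for 22436 of the 57258, while 95 have several and 34727 have none. Symbols came from the ASM3414082v1 gene table, used for names only. It holds no descriptions, so the lists were matched on symbol or synonym. Where a gene in the lists or markers, outside the 6, had several probe sets, the brightest stands for it. In the search for similar profiles, every probe set of a named gene that passed the filter was compared. The genes described, the lists and the markers were chosen with earlier results of these data known. Named are all probe sets of the 6 genes, the measured genes of the lists, the 3 most similar genes of each, and EIN2. Sequences of the genes are not shown here.

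Fits used limma 3.58.1 in R 4.3.3 with moderated variances, and p was adjusted by Benjamini and Hochberg over 21444 probe sets, with 0.05 as the threshold. Fits over 4 pairs kept the pair as a block and have 3 residual degrees of freedom. Fits within an organ, and interactions in 1 fit with all 3 factors, have 1. They treat pairs that differ in genotype, organ or gas as repeats. Tested on simulated data for the same 21444 probe sets, the 4-pair fit for genotype recovered 91 of 100 changes of log2 size 1 and 96 of size 2, that for ethylene 92 and 97, and that for tissue 91 and 100. The simulated spread came from the ethylene fit for every comparison, and each change had the same size in all pairs. These rates therefore do not carry over to genotype or tissue differences that vary between pairs, where a miss says less. Within shoots, 0 and 82 were recovered for genotype and 1 and 83 for ethylene, and the interactions recovered 0 of 100 at both sizes, so a miss there says little. Python 3.11.15 (numpy 2.4.6, pandas 2.3.3) gave the other values, and matplotlib 3.10.9 the figures. Alternatives changed the scaling, floor, filter, variance model, fold size and probe set, and left out each pair in turn.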

Additional observations from a re-analysis of the deposited data

How the results depend on the processing

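No paired analysis by replicate number was possible because each condition has 1 array, so the pairs that differ in 1 factor served as the block. All alternatives were planned. The counts of changed member probe sets over the 8 comparisons of gas and genotype depended on the size asked for, 13 at 2-fold and 6 at 3-fold. For genotype over 4 pairs, the 310 probe sets called became 173 with a floor of 200, 2 with no filter and 5 to 49 with a pair left out, and no member was called except without the floor (1, PORA). Within shoots, genotype called none in the reported fit, 1272 without the floor, with 3 members, and 265 with trended and robust variances, with 1 member. Within roots it called 85 without the floor. Interactions, with 1 residual degree of freedom, called none as reported. With median scaling, the values as deposited, and trended and robust variances, in that order, genotype by tissue called 2538, 2690 and 2310 probe sets with 3, 3 and 1 members, and gas by tissue 522, 191 and 73 with 1 member each. Gas by genotype called 416, 116 and 38, and 1 member with median scaling only. A floor of 200 gave 1072 for genotype by tissue with 1 member. The cause was not tested. With a pair left out, the mhz7 minus WT difference of RBCS 1 ran from -0.726 to 0.0367 and that of RBCS 3 from -0.148 to 0.0269, turning sign without the air root pair, and for RBCS 3 also without the ethylene shoot pair (0.0102). The same left-out pairs moved RCABP89 between -1.28 and -0.64, PORB between -0.35 and -0.15 and RBCS 2 between 0.10 and 0.38. Of the values of single members under an alternative, 17 passed the threshold there only, 21 differences between 2 arrays no longer met the rule for a change, 3 turned sign and 533 kept side and direction. Of the counts, 31 moved by over 1.5 times, which are those given above, and 139 did not. Signal over background limits the root values, of which most lie near the floor.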

Other observations

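A group of 5 further probe sets is assigned jointly to RBCS1, LOC4352021 and LOC4352016 in the gene table, so they belong to no single gene and were outside the members, and 4 of them passed the filter. In shoots all 4 read higher in mhz7 than in WT in both gases. A pair of them passed 2-fold in ethylene: one read 4941 in mhz7 shoots and 2313 in WT shoots (1.09), the other 12518 and 6040.2 (1.05), and in air they stood at 0.81 and 0.77. In that ethylene comparison 1.95% of all probe sets changed in either direction, where 0.854% of all were lower and the remainder higher, as this pair was. The brightest of the 4 read 32246 in mhz7 and 29092 in WT in ethylene (0.15), and 35030.2 in mhz7 and 30413 in WT in air (0.20). In roots the brightest read 201 and 323 in mhz7, in ethylene and air, and 287 and 1159 in WT. It fell there with ethylene in WT (-2.01) and in mhz7 relative to WT in air (-1.84), both resting on WT roots in air. The others of the 4 read 123.5, 43.8 and 136 in WT roots in air, their highest root signals. None reached the signal that the rule for a change needs, so a fall like that of the brightest could not be called. In mhz7 roots in air they read 47.0, 22.4 and 39.3, and in WT roots in ethylene 35.5, 17.8 and 57.9, all under the floor. These jointly assigned probe sets may bind transcripts of several small-subunit genes. They share sequence with each other, so they are not independent of each other.

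Genes of chlorophyll breakdown were also read. The chlorophyll b reductase genes NYC1 and NOL, the stay-green gene SGR and the red chlorophyll catabolite reductase gene RCCR1 all passed the filter, and none of the 4 changed 2-fold with gas or genotype. In shoots each read higher in mhz7 than in WT in both gases, with medians of 0.18 in ethylene and 0.28 in air. SGR, unlike the members, read higher in roots than in shoots, at 1042 in mhz7 shoots in ethylene against 1644 in mhz7 roots in ethylene, and at 808 in WT shoots in air against 2365 in WT roots in air.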
